A study of Rattus norvegicus with 5 samples.

Results

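The direct comparison of rat Neurons with rat neural stem cells (NSCs) in an N6-methyladenine (6mA) immunoprecipitation study is described here. Its members were all regions on named chromosomes in the 2 lists that the authors made for this pair: 32213 regions higher in Neurons and 27634 regions higher in NSCs, 59847 in all. Over their inputs, the authors listed 137579 peaks in Neurons, 121816 in NSCs and 116091 in Astrocytes, 375486 peaks in the whole series. The NSCs were the SCR022 cell line of rat neural stem cells, and the labels call the Neurons and the Astrocytes by their cell type alone, with no strain, age, treatment or origin. Each cell type gave 1 library enriched with an antibody against 6mA, and inputs without enrichment were sequenced for NSCs and for Neurons. Sequencing depth of the enriched libraries was 16095308 reads for Neurons (86.55% uniquely mapped) and 15760246 for NSCs (87.47%), and the 2 inputs were deeper, at 22329441 and 27936774. The Astrocyte peaks, which are used below, were also called over an input. That input is not among the samples of the series, and its depth is not given here. With 1 library per cell type no test was possible, and every difference below is a difference between 2 libraries. The labelled cell types could not be checked by marker expression, since the files hold enriched DNA and no RNA.

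6mA is a methyl group on the sixth position of adenine. It is abundant in bacterial DNA, while its amount and role in mammalian DNA are debated, and an antibody can also pull down DNA that lacks the mark. The series title names N6amt1, a methyltransferase, and Txnrd3, a thioredoxin reductase expressed strongly in testis, in the setting of hippocampal neurogenesis. Neural stem cells divide and give rise to neurons and glia, and neurons leave the cell cycle and build axons, synapses and ion channels.

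The promoters of 5 genes that carry results below are shown first, so that the kind of DNA involved can be seen. They are the 250 bases before the gene start in RefSeq's GRCr8 assembly, 5′ to 3′ on the strand of the gene, with each CG dinucleotide in capitals. The windows were matched by gene symbol. The sources used here do not give the build of the deposited files, so a window is the gene's promoter and not the exact enriched region. Txnrd3, Psma4, a proteasome subunit, and Fosl2, a subunit of the transcription factor AP-1, had a promoter region higher in Neurons. Slf1, which acts in DNA repair, and Mdga2, an adhesion protein that restrains neuroligins, had a promoter region higher in NSCs.
Txnrd3: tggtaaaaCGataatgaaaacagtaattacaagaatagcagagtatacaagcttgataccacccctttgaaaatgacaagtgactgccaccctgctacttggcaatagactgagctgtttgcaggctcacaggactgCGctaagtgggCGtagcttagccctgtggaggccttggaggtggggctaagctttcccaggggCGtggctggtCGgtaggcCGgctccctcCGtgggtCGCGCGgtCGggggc
Psma4: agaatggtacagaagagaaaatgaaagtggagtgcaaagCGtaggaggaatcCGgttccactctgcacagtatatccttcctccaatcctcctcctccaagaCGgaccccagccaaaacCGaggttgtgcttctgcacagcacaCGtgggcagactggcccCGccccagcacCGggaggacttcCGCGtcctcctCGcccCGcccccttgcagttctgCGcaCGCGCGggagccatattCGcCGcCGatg
Fosl2: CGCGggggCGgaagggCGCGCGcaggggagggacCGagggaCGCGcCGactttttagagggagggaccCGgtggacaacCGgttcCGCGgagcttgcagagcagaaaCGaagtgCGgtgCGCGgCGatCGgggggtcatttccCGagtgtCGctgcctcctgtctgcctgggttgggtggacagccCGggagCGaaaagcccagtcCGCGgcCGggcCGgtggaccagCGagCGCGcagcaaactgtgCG
Slf1: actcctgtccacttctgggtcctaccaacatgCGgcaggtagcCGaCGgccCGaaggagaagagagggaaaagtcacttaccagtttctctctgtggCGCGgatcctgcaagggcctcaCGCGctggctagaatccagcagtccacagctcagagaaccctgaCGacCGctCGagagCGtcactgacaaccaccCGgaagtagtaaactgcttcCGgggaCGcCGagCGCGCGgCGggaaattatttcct
Mdga2: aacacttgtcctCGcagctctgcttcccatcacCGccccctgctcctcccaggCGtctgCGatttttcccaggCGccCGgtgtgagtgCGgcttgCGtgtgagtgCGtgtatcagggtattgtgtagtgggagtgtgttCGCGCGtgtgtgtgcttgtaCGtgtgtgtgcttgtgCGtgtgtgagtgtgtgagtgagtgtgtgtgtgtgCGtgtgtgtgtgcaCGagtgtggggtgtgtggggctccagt
These lie at chr4:123629518-123629767 (plus strand), chr8:64236270-64236519 (plus), chr6:30039270-30039519 (minus), chr2:8606224-8606473 (minus) and chr6:91344394-91344643 (minus) of GRCr8, in that order. The motif CG, which reads the same on both strands, occurred 11 times in the Txnrd3 window, 18 times in that of Psma4, 32 times in that of Fosl2, 20 times in that of Slf1 and 16 times in that of Mdga2. Of 27457 RefSeq promoter windows of this length, 36.1% held at least 11, 21.7% at least 18, 4.31% at least 32, 18.0% at least 20 and 25.8% at least 16. The Fosl2 window was thus the one rich in CG by this measure, and that of Txnrd3 the poorest of the 5. Whether promoters of the 2 directions differ in CG content was not established, since only 76.6% of the named Neuron promoters and 78.1% of the named NSC promoters had a window, too few for that check.

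MicroRNA genes also carried regions, and their mature sequences follow for the families with more than 1 gene in a direction and for 3 single genes. The seed, bases 2 to 8, which pairs with target messages, is in capitals. These genes were chosen after their values were seen. Listed with a region higher in Neurons:
miR-20b-5p: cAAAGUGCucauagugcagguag
miR-17-5p: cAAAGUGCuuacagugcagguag
miR-92a-3p: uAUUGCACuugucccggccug
miR-363-3p: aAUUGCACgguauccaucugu
miR-375-3p: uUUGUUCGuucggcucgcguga
miR-509-3p: uGAUUGACaugucugcagugga
Listed with a region higher in NSCs:
miR-181c-5p: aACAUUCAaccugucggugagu
miR-181d-5p: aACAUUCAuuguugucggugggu
miR-107-3p: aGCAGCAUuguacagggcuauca
The table from RefSeq gives miR-17-5p as the mature product of the gene the files call Mir106a. The seed AAAGUGC is shared by miR-20b-5p and miR-17-5p, AUUGCAC by miR-92a-3p and miR-363-3p, and ACAUUCA by miR-181c-5p and miR-181d-5p. Of 32 different seeds among the 35 matched mature sequences, 0 were shared between a gene higher in Neurons and a gene higher in NSCs. Only 8 of 10 Neuron genes and 12 of 14 NSC genes had a matched sequence, and Mir103a1, a relative of Mir107, had none. The 0 therefore covers the matched sequences alone and leaves out Mir103a1, so it does not show that the directions share no seed.

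Regions higher in Neurons made up 53.8% of all regions (95% interval 53.4 to 54.2, exact Clopper-Pearson, counting error only). The 2 directions were not made alike. All 27161 Neuron regions that overlapped a Neuron peak had exactly that peak's coordinates, 84.3% of the direction. In NSCs 10252 regions, 37.1%, had exactly the coordinates of an NSC peak. The lead of Neurons can therefore not be told apart from how the lists were called. It grew with the authors' fold, the ratio of the enriched library to the other enriched library: 58.4% of the regions with a fold of at least 10 were higher in Neurons (13605 against 9705), 66.6% with at least 15 (1762 against 884) and 68.1% with at least 20 (262 against 123). With a score of at least 100, where the score is 10 times −log10 of the authors' p-value, 60.5% were higher in Neurons (3663 against 2394). The strongest and the broadest regions showed no such lead, with 163 in each direction at a score of at least 200, and 682 against 724 at a width of at least 1000 bp.

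In the authors' deposited table the fold had a median of 9.70 (quartiles 7.40 and 11.9, highest 35.8) in Neurons. For NSCs the authors' deposited table gave a median of 9.40 (7.54 and 11.1, highest 37.0). The folds took repeated values: the commonest, 12.34, occurred in 2083 Neuron regions of the authors' deposited table, and 9.87 occurred in 2652 NSC regions. The 5 commonest folds covered 21.2% of the Neuron regions and 30.5% of the NSC regions. Whether a fold is the ratio of the 2 libraries at its site could not be checked, and equal folds give no order. Widths had a median of 441 bp in Neurons and 406 bp in NSCs, and the directions covered 15.6 and 12.8 Mb.

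**Figure D1:**
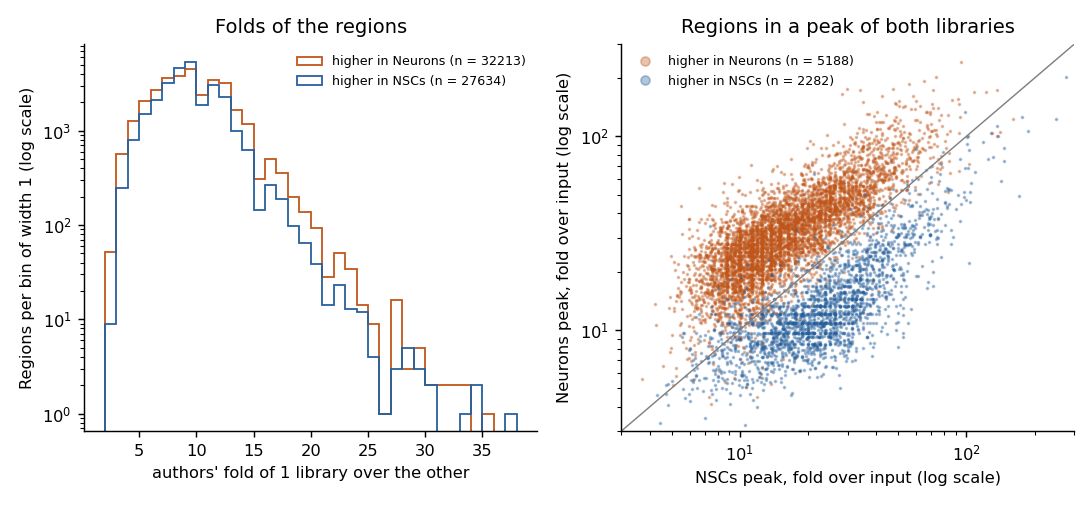
Left, number of regions per bin of the authors' fold (x, bins of width 1; y, regions, log scale), orange for higher in Neurons and blue for higher in NSCs. Right, regions in a peak of both libraries, with the fold over input of the NSCs peak (x) and of the Neurons peak (y), both on log scales; the grey line marks equal folds, and 96.5% of 5188 orange and 92.8% of 2282 blue points lie on the side of the library called higher.

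Peaks over input gave a view of the same regions that uses the inputs beside the same enriched libraries. Of the Neuron regions, 68.2% lay in a Neuron peak with no NSC peak, 5188 lay in a peak of both, and 15.7% lay in a peak of neither. Of the NSC regions, 66.0% lay in an NSC peak with no Neuron peak, 2282 lay in a peak of both, and 25.7% lay in neither. Where both libraries had a peak, the peak of the higher library had a median 1.93 times the other's fold over input in Neurons and 1.76 times in NSCs. The fold over input was the larger one in the library called higher at 96.5% and 92.8% of these sites, as the plot of folds over input shows. The same enriched libraries chose the regions, so this match was largely fixed in advance and is no independent check of direction. The regions were a minor part of each landscape: 19.7% of Neuron peaks and 16.9% of NSC peaks overlapped a region of their direction.

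The Astrocytes library, which the comparison did not use, gave another reading. An Astrocyte peak lay at 32.7% of Neuron regions (95% interval 32.1 to 33.2) and at 20.0% of NSC regions (19.5 to 20.5). Among all peaks, 51.0% of those of Neurons and 53.4% of those of NSCs overlapped an Astrocyte peak. Of regions in a peak of their own library, 37.8% of Neuron regions and 25.5% of NSC regions did, and of those in a peak of neither library 4.77% and 4.04%. The shares moved with the fold. When each direction was split by fold into 4 classes of equal size, 65.0% of the Neuron regions with the lowest folds lay in an Astrocyte peak and 52.7% in an NSC peak, and 19.1% and 0.472% of those with the highest folds did. For NSC regions the Astrocyte share was 38.8% in the lowest class and 14.1% in the highest, and the Neuron peak share 26.6% and 0.564%. Within each class the Astrocyte share was the larger one in the Neuron direction.

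**Figure D2:**
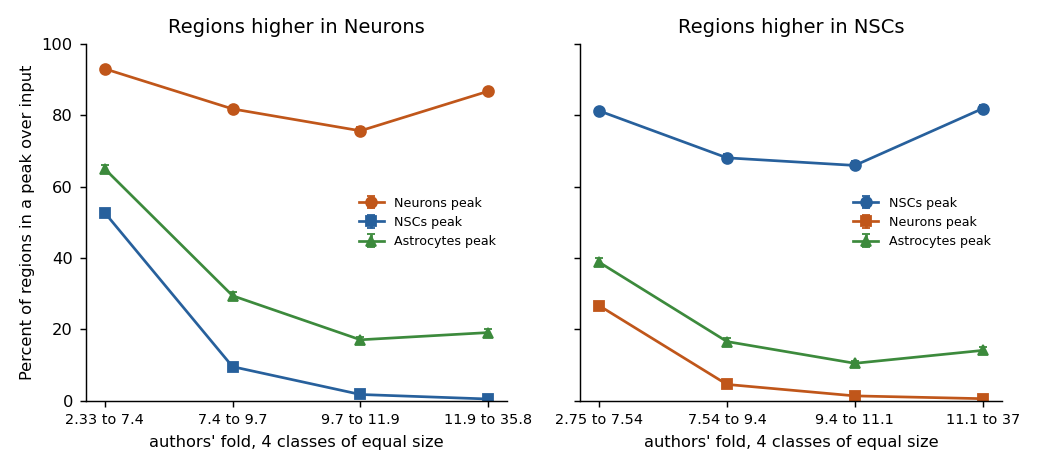
Percent of regions (y) in a peak over input of Neurons, NSCs or Astrocytes, by class of the authors' fold (x, 4 classes of equal size), for regions higher in Neurons (left) and higher in NSCs (right); bars are exact 95% intervals of counting error. The Astrocyte share is 65.0% in the lowest Neuron class and 38.8% in the lowest NSC class.

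By annotation class, regions at CpG islands were higher in Neurons most often. CpG islands are stretches rich in CG dinucleotides, commonly at promoters and mostly free of cytosine methylation. Of 285 regions in an island, 180 were higher in Neurons, 63.2% (95% interval 57.3 to 68.8), and at the shores beside islands 539 of 883 were, 61.0% (57.7 to 64.3). Promoters had 1254 against 958 regions, 56.7% (54.6 to 58.8), exons 1510 against 1204, 55.6%, and introns 11483 against 9480, 54.8%. Downstream 2 kb windows had 54.1%, and regions in no gene class had 53.1% (52.6 to 53.6), with 18902 against 16675. Island regions in a promoter were higher in Neurons in 58.1% of cases (86 against 62), and those away from one in 68.6% (94 against 43). The lists of peaks over input had a similar order: Neuron peaks made up 61.4% of the island peaks of both libraries, 56.9% of the shore peaks, 54.9% of the promoter peaks and 52.7% of those in no gene class. The island lead was therefore already in the peaks over input. With a score of at least 100 the island count was 20 against 3, 87.0%. Island regions higher in Neurons lay in an Astrocyte peak in 15% of cases, and those higher in NSCs in 2.86%.

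**Figure D3:**
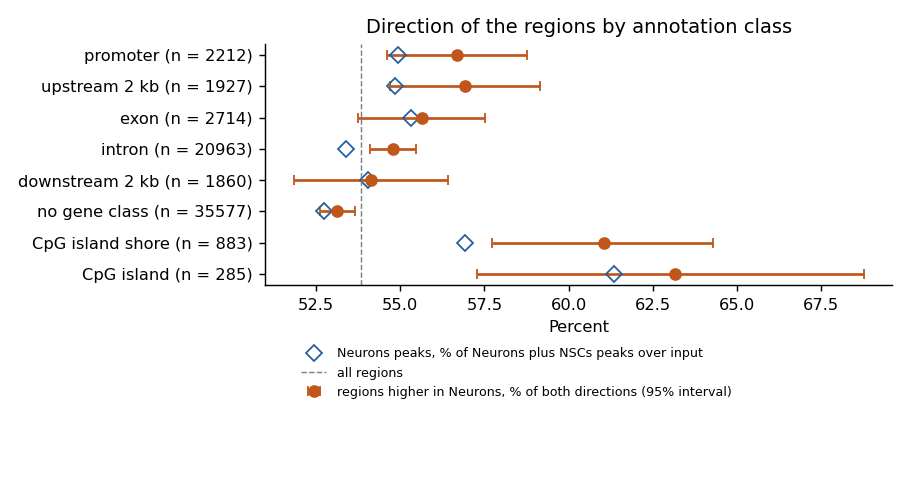
Percent of regions higher in Neurons (orange points, exact 95% interval of counting error) and Neuron share of the peaks over input of Neurons and NSCs (blue diamonds) for each annotation class (y, with the number of regions). The axis does not start at 0, and the dashed line marks all regions, 53.8%.

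Apart from the Y, with its few regions, chromosome 12 leaned most towards Neurons and the X chromosome least. Chromosome 12 held 930 against 650 regions, 58.9% higher in Neurons (95% interval 56.4 to 61.3), followed by chromosome 13 with 56.5%, chromosome 6 with 55.96% and chromosome 19 with 55.9%. The X held 1318 against 1339, 49.6% (47.7 to 51.5), while the autosomes together had 54.0% (53.6 to 54.4). Chromosome 2 was the lowest autosome, with 51.96%. Peaks over input varied less, and the Neuron share was 54.5% on chromosome 12 and 52.3% on the X. Per 100 NSC peaks the X held 26.5 regions higher in NSCs, against 22.5 on the autosomes, and per 100 Neuron peaks it held 23.8 regions higher in Neurons, against 23.4. The sex of the cells is not given in the labels, and its part in the X value was not tested. The Y held 6 against 9 regions.

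**Figure D4:**
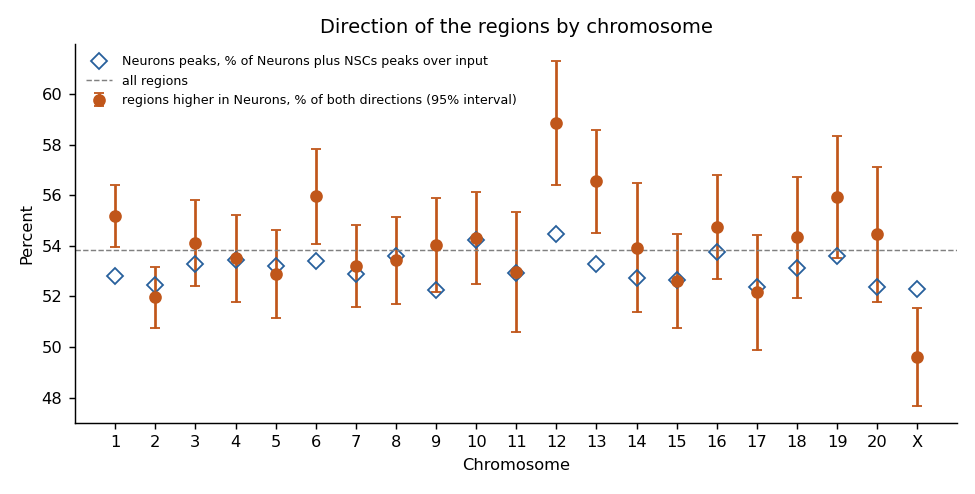
Percent of regions higher in Neurons (orange points, exact 95% interval of counting error) and Neuron share of peaks over input (blue diamonds) on each chromosome (x). The axis does not start at 0; chromosome 12 is at 58.9%, the X at 49.6% and the dashed line at 53.8%; the Y, with 15 regions, is left out.

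Within chromosomes the directions were mixed at short range. The region nearest to a Neuron region was also higher in Neurons in 56.4% of cases, where 53.8% of all regions were, and the region nearest to an NSC region was also higher in NSCs in 49.4%, where 46.2% were. For nearest regions within 10 kb these shares were 59.5% and 52.5%. Of 1321 windows of 2 Mb with at least 25 regions, the percent higher in Neurons had a median of 54.1, 41 windows reached 70 and 9 were at 30 or less. The highest was on chromosome 6 from 136 to 138 Mb, with 27 against 5 regions (84.4%), and its peaks over input were 99 in Neurons and 87 in NSCs. The lowest was on the X from 150 to 152 Mb, with 8 against 26 (23.5%), where the peaks were 58 and 59.

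At promoters, with positions as the files give them, the largest fold higher in Neurons in the authors' deposited table was at Arr3, the cone arrestin of the retina (fold 24.7, chrX:70437986-70438470). Psma4 had a fold of 22.2 in the authors' deposited table (chr8:59531151-59531666), in an island shore. Mmp16, a membrane-bound matrix metalloproteinase, had 20.97 in the authors' deposited table, in a region annotated as promoter, exon and CpG island (chr5:31567989-31568474). Slco1a2, an organic anion transporter, and Col5a1, a fibrillar collagen, had 20.97 each, Cryba2, a lens crystallin, 18.5, the olfactory receptor gene Olr1121 18.5 and Tex11, a meiosis gene, 18.5, all in the authors' deposited table. All 8 regions lay in a Neuron peak over input (folds 15.1 to 23.6) and in no NSC peak, and those of Arr3, Psma4, Slco1a2 and Cryba2 lay in an Astrocyte peak as well.

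At promoters higher in NSCs, Slf1 had the largest fold in the authors' deposited table, 17.3 (chr2:4197458-4197927). Pax8 and Foxe1, both transcription factors of thyroid development, followed with 16.0 (chr3:1586052-1586259) and 15.98 (chr5:61952792-61953101) in the authors' deposited table. Trmu, which modifies mitochondrial transfer RNA, had 15.7, Phb, the mitochondrial scaffold prohibitin, 15.5, and Qrich1, Mdga2 and Spt1 14.8 each in the authors' deposited table. All 8 lay in an NSC peak over input (folds 7.12 to 17.6) and in no Neuron peak. These 8 NSC promoter folds were thus lower than the 8 Neuron promoter folds. Over all regions the highest fold in the authors' deposited table was 37.0 in NSCs and 35.8 in Neurons.

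In CpG islands the Neuron direction was led by Mmp16, then Fosl2 (fold 18.5, chr6:25618508-25618864), Fam84a (17.3), Eepd1, an endonuclease family protein (16.8), and an intron of Ptpru, a receptor phosphatase (16.3), in the authors' deposited table. The NSC direction was led in the authors' deposited table by Mdga2 (14.8, chr6:89291864-89292221), an intron of Rbm43 (14.8), the promoter of Phf12, a subunit of a Sin3 complex (13.9), an intron of Dmrt1, a gonadal transcription factor (13.6), and C1ql2, a synaptic organiser of the C1q family (13.6). The Phf12 and C1ql2 regions lay in no peak over input.

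Exon regions higher in Neurons were led in the authors' deposited table by Tmem260 (fold 21.2), Pde4d, a cyclic AMP phosphodiesterase (20.97), Mmp16, Adgra3, an adhesion G protein-coupled receptor (19.9), and Epha7, an ephrin receptor of axon guidance (19.7, chr5:43744004-43744430). Rbm20, a splicing factor, Pglyrp2 and Trim40 followed with 18.5, 18.5 and 18.3 in the authors' deposited table. Those higher in NSCs were led by Ndst1, a heparan sulfate sulfotransferase (21.4, chr18:55967279-55967717), Bend4 (20.8), Itm2c (18.5) and Smyd1, a muscle methyltransferase (18.4), in the authors' deposited table. Mterf2, Slc35a5, Hspa13 and Ly75 had 17.3 each in the authors' deposited table. The Tmem260 region lay in no peak over input, so its fold has no counterpart there, while all 8 NSC exon regions lay in an NSC peak.

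Ranked by score, the Neuron direction was led in the authors' deposited table by an intron of Zfp189, a zinc finger gene (score 509.98, fold 13.2, chr5:64793473-64794317). The fold over input there was 32.4 in Neurons, 10.5 in NSCs and 15.6 in Astrocytes. The third was an intron of Apba2, an adaptor of presynaptic vesicle release, 2991 bp wide with a fold of 4.47 in the authors' deposited table. The 5 highest scores in NSCs, 612.6 to 498.9 in the authors' deposited table, all lay in no gene class. Each of those 5 lay in a peak of all 3 libraries, with folds over input of 29.99 to 104 in NSCs and 7.36 to 51.3 in Neurons. When the Neuron regions were split by score into 4 classes of equal size, 22.0% of those with the highest scores and 11.2% of those with the lowest lay in an NSC peak, the opposite order to that by fold.

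Txnrd3 held 1 region, higher in Neurons, in its promoter and an island shore (chr4:121611399-121611828). In the authors' deposited table it had a fold of 12.51 and a score of 92.53. It lay in a Neuron peak with a fold over input of 13.3 and in no NSC or Astrocyte peak. Of 1254 promoter regions higher in Neurons, 189 (15.1%) had at least this fold and 173 (13.8%) at least this score, and of the 226 in an island or shore 40 had at least this fold. The Txnrd3 promoter was therefore in the upper part of this set and far from its top. N6amt1 held no region in either direction.

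The thioredoxin and glutathione enzymes, which keep protein thiols reduced and remove peroxides, held regions of both directions in different genes. Across 23148 RefSeq genes, 24.4% had a region higher in Neurons, 21.7% a region higher in NSCs, 11.0% both, 13.4% Neurons only and 10.7% NSCs only. Of the 28 redox genes, 8 had a region higher in Neurons (28.6%), 5 a region higher in NSCs (17.9%) and 0 had both. Both shares lay near those of all genes. The redox genes are short, with a median of 14.6 kb against 114 kb for genes with both directions. All genes were also split by length into 10 classes. The class with a median of 12.6 kb had 15.4% with Neuron regions and 12.4% with NSC regions. The class with a median of 19.1 kb had 19.5% and 17.0%. Both redox shares lay above these values, with 8 and 5 genes. The 3 thioredoxin reductases did not share a direction. Txnrd1, the cytosolic enzyme, had 2 intronic regions higher in NSCs, with folds of 12.3 and 7.73 in the authors' deposited table. Txnrd2, the mitochondrial enzyme, had 3 intronic regions higher in NSCs, with folds of 12.3, 9.87 and 9.87 in the authors' deposited table. Txn2, the mitochondrial thioredoxin that Txnrd2 reduces, had 1 intronic region higher in NSCs with a fold of 13.5 in the authors' deposited table. On the Neuron side beside Txnrd3 stood Glrx, a glutaredoxin, with a promoter region (fold 13.5 in the authors' deposited table, chr2:2605522-2605878).

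Glutathione genes also stood on both sides. Gclc, the catalytic subunit of the first enzyme of glutathione synthesis, had an intronic region higher in Neurons (fold 12.5 in the authors' deposited table), and its partner subunit Gclm had 2 regions higher in NSCs (the larger fold 13.6 in the authors' deposited table). Gss and Gsr, the synthetase and the reductase, had 1 intronic region each higher in Neurons, and Slc7a11, the cystine importer, had 2. Prdx4 and Prdx6, peroxiredoxins, had 1 each higher in Neurons, and Sod2, the mitochondrial superoxide dismutase, had a promoter region higher in NSCs (8.77 in the authors' deposited table). Of all regions, 84.3% of those higher in Neurons and 74.3% of those higher in NSCs lay in a peak of their own library over input. Only 6 of the 9 Neuron regions and 3 of the 9 NSC regions of this list did. With those alone, 5 genes remained on the Neuron side and 2, Txnrd2 and Sod2, on the NSC side; the regions of Txnrd1, Txn2 and Gclm lay in no peak over input.

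The adenine methylation list held 15 genes (writers and their partner subunits, erasers and readers). Of these, 2 had a region higher in Neurons (13.3%) and 5 a region higher in NSCs (33.3%). Over all genes the shares were 24.4% and 21.7%. The list had a median length of 25.1 kb, and the length class at 28.0 kb had 25.8% and 22.8%. Fto, an RNA demethylase with a long gene, had 4 intronic regions in each direction, and Virma, a subunit of the RNA m6A writer complex, had 1 in each. Mettl16, an RNA methyltransferase, had an intronic region higher in NSCs with a fold of 16.2 and a score of 192 in the authors' deposited table (chr10:61668822-61669582). Mettl3, the catalytic subunit of the m6A writer, and Alkbh5, an RNA demethylase, had 1 region each higher in NSCs, and both of these lay in no peak over input.

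Transcription factors of neuronal fate had more Neuron than NSC regions, 23 against 10 (69.7%, 95% interval 51.3 to 84.4). That interval holds the 54.8% of all regions in genes. Of 29 genes, 11 had a region higher in Neurons (37.9%), 4 a region higher in NSCs (13.8%), 8 had Neurons only and 1 NSCs only. Prox1, which specifies dentate granule cells, had a region over its promoter and exon higher in Neurons (fold 10.7 in the authors' deposited table, chr13:108385027-108385407) and a second in an intron. Bcl11b, a zinc finger factor of neuronal differentiation, had 3 intronic regions higher in Neurons with folds of 13.8, 10.95 and 6.35 in the authors' deposited table. Fezf2, of deep-layer cortical neurons, had a downstream region in a CpG island (13.1 in the authors' deposited table), and Cux2, of upper-layer neurons, an intronic one (14.0 in the authors' deposited table). Insm1, Dlx2, Klf7 and St18 had 1 region each, all higher in Neurons. Pou3f2, a POU domain factor, was the single gene with an NSC region only, in an exon and an island shore. Myt1l had 3 against 4 regions and Zbtb20 5 against 3. Of these regions, 20 of 23 and 8 of 10 lay in a peak of their own library. Over all genes 24.4% had a Neuron region and 21.7% an NSC region. The fate factors had a median length of 8.46 kb, and the length class at 8.08 kb had 9.59% and 7.95%.

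Stem and progenitor genes showed both directions, with 7 of 24 genes (29.2%) higher in Neurons, 5 (20.8%) higher in NSCs and 15 against 13 regions. Msi2, an RNA-binding protein of stem cells, held 16 of these 28, 7 against 9. Prom1 had 3 intronic regions higher in Neurons, and Fgfr1 and Nr2e1, a nuclear receptor needed for stem cell renewal, 1 each higher in NSCs. The stem and progenitor genes had a median length of 9.64 kb. The length class at 8.08 kb had 9.59% with Neuron regions and 7.95% with NSC regions, and that at 12.6 kb 15.4% and 12.4%.

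Of 36 cell cycle genes, 5 (13.9%) had Neuron regions and 7 (19.4%) NSC regions, both below the shares of all genes. In this list 0 had both, where 11.0% of all genes did. Cell cycle genes are short, with a median of 14.1 kb, against 114 kb for genes with both directions. The length class at 12.6 kb had 15.4% with Neuron regions and 12.4% with NSC regions, and that at 19.1 kb 19.5% and 17.0%. The cell cycle genes lay below these values for Neurons and above them for NSCs. Their regions numbered 6 against 10, of which 6 and 6 lay in a peak of their own library; the NSC regions of Cdk1 and Mcm3 lay in no peak over input. Top2a, the topoisomerase of dividing cells, had an exonic region higher in NSCs (fold 13.6 in the authors' deposited table), Cdk6 had 3 intronic ones and Cdk1 a promoter one. Mcm5, of the replicative helicase, had an exonic region higher in Neurons (15.4 in the authors' deposited table), while its partners Mcm3 and Mcm6 had 1 each higher in NSCs. Bub1 and Bub1b, of the spindle checkpoint, and Ccnd2 had 1 each higher in Neurons, and Rb1 had 2. Of 32 ribosomal protein genes, which are short, 0 had a region higher in Neurons and 3 (9.38%) had one higher in NSCs. The 3 were Rpl6, Rpl19 and Rpl35, and the Rpl19 region lay in no peak over input. The median length of this list lay between the length classes at 2.21 and 4.64 kb. The class at 2.21 kb had 4.36% with Neuron regions and 4.28% with NSC regions, and that at 4.64 kb 7.21% and 5.75%. Counts of 0 and 3 genes are too few to set the list apart from these shares.

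Genes of neuronal function are long, and most had regions in both directions. In the longest length class, with a median of 186 kb, 74.5% of genes had a Neuron region and 67.9% an NSC region. The axon guidance genes had a median length of 199 kb. In the axon guidance list, 35 of 39 genes carried a Neuron region (89.7%) and 26 an NSC region (66.7%), with 136 against 92 regions, 59.6% higher in Neurons, where all regions in genes gave 54.8%. Robo2, a Slit receptor, had 17 against 8, Slit1 5 against 0 and Sema5a 7 against 1, while Robo1 had 5 against 9 and Efna5, an ephrin ligand, 0 against 3. Potassium channel genes had 123 against 77 regions (61.5%), and sodium and calcium channel genes 74 against 45 (62.2%). Their members differed widely: Kcnh1 had 8 against 2, Kcnh5 6 against 1 and Cacna1d, an L-type channel, 9 against 1, while Kcnq3 had 3 against 6 and Cacna2d3 9 against 12. The largest fold in these 2 lists in the authors' deposited table was at Dpp10, a potassium channel partner (29.6), higher in Neurons.

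Synaptic lists had shares nearer to the 54.8% of all regions in genes, with intervals that overlapped those of the guidance and channel lists. Glutamate receptor genes had 107 against 94 regions (53.2%), presynaptic release genes 80 against 67 (54.4%), synaptic adhesion and scaffold genes 161 against 124 (56.5%) and GABA and glycine genes 44 against 33 (57.1%). Here too single genes leaned strongly. Gria1, an AMPA receptor subunit, had 8 against 1, Gria2, the subunit that limits calcium entry, 2 against 5, and Grik2, a kainate receptor subunit, 4 against 12. Lrrtm4 had 15 against 5, Cntnap4 11 against 3, Nlgn1, a postsynaptic neuroligin, 6 against 14 and Unc13c, a vesicle priming factor, 9 against 3. Immature neuron and cytoskeleton genes had 38 against 39: Stmn2 had 2 against 0 and Elavl4 5 against 1, whereas Gap43, of growth cones, had 0 against 3, and the ankyrin genes Ank2 and Ank3 had 1 against 6 and 2 against 5. Of the regions of this list, 32 of 38 and 21 of 39 lay in a peak of their own library, and 5 of the 6 NSC regions of Ank2 lay in no peak over input. Over input, Ank2 held 19 Neuron and 12 NSC peaks and Ank3 28 and 24, the opposite order to that of their NSC-leaning regions.

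Signalling lists differed in direction by their members. The Notch list had 30 against 17 regions (63.8%, 95% interval 48.5 to 77.3). It was led by Maml3, a Notch coactivator (9 against 3), and Dner, a neuronal Notch ligand (7 against 4). Dner also had the list's largest fold in the authors' deposited table, 27.1. Wnt genes had 31 against 25 (55.4%), with Tcf7l1, a repressor of Wnt targets, 6 against 0, Ror1 5 against 0, and the receptors Fzd3 and Ryk 0 against 2 and 0 against 3. The BMP and TGF-beta list had 21 against 28 (42.9%, 95% interval 28.8 to 57.8), with Smad1 and Smad5, the BMP effectors, 0 against 2 each, and Tgfbr2 3 against 0. All the lists together had 959 of 1696 regions higher in Neurons, 56.5%.

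Markers of other cell types were included because the cultures could hold them. Of 16 microglia genes, 7 had a region higher in Neurons (43.8%) and 1 one higher in NSCs (6.25%), with 11 against 1 regions (91.7%, 95% interval 61.5 to 99.8). Among them were Spi1, the myeloid master regulator, with 2 intronic regions (folds 15.7 and 9.78 in the authors' deposited table), Ptprc, Tmem119 and Runx1 with 2 each, and Csf1r and Cx3cr1 with 1 each. Runx1 had the NSC region. Over all genes the shares were 24.4% and 21.7%, and the length class at 19.1 kb had 19.5% and 17.0%. The microglia genes had a median length of 18.2 kb. With folds of at least 10 the count was 3 against 0 genes, and with a score of at least 100 it was 0 against 0. Enriched DNA does not show which cells were present, and the part of other cells in any direction was not tested. Astrocyte markers had 42 against 35 regions (54.5%), of which Gpc5, a glypican with a long gene, held 16 against 12, and oligodendrocyte markers 4 against 6.

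**Figure D5:**
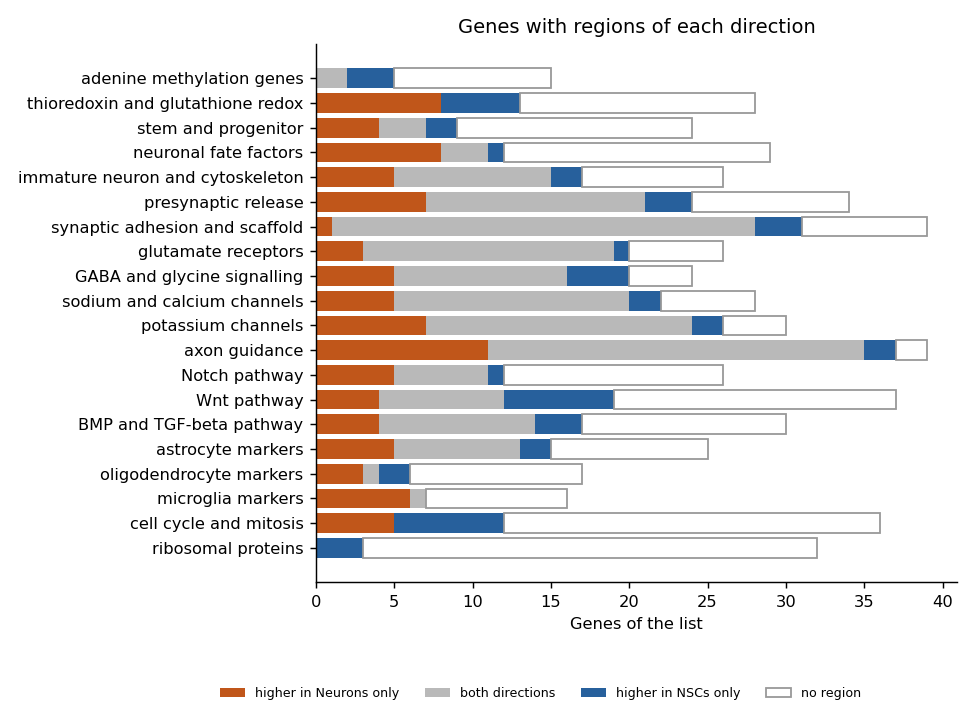
Number of genes (x) of each list (y) with regions higher in Neurons only (orange), in both directions (grey), higher in NSCs only (blue) or with no region (white). The redox and cell cycle lists, of short genes (median 14.6 and 14.1 kb), have 0 genes with both. Of the synaptic adhesion and axon guidance genes, which are long (median 487 and 199 kb), 27 of 39 and 24 of 39 have both. Over all genes 11.0% have both, and the share with a region follows gene length.

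Gene by gene, 12182 names had a region: 5049 with Neuron regions only, 4024 with NSC regions only and 3109 (25.5%) with both. The share with a region followed gene length. Among the tenth of genes that were shortest (median 0.933 kb), 3.20% had a Neuron region and 2.89% an NSC region, and among the longest (median 186 kb) 74.5% and 67.9%. The direction did not follow length: Neuron regions made up 52.3% to 55.7% in all 10 length classes. Genes with at least 5 regions in 1 direction and 0 in the other numbered 26 for Neurons and 7 for NSCs.

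Cacna1e, the R-type calcium channel, led the one-sided genes with 9 Neuron regions and 0 NSC regions, spread over its introns on chromosome 13 from 71907991 to 72520255. Their folds ran from 4.39 to 17.3 in the authors' deposited table, all 9 lay in a Neuron peak over input, and 1 lay in an NSC peak. Gadl1 and Immp2l had 7 Neuron regions each, and Aim1, Dock9, an activator of Cdc42, Fam13a, Tcf7l1 and Tenm4, a teneurin, 6 each. Hecw1, a ubiquitin ligase, led the NSC side with 8, followed by Cgnl1 with 6, and Catsperb, Cdyl, a chromodomain corepressor, Csnk1g1, a casein kinase, Foxp1, a forkhead factor, and Nxph2, a neurexophilin, with 5 each, and A1cf with 4. One-sided genes also held peaks of the other library: Cacna1e had 34 Neuron peaks and 22 NSC peaks over input, and Hecw1 22 and 25. Csnk1g1 was more one-sided there, with 1 Neuron peak and 6 NSC peaks, and Nxph2 had 5 and 12.

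The genes with the most regions were long and mixed. Nrg3, an ErbB4 ligand, had 21 against 26, Ctnna3, an alpha-catenin, 28 against 15, Dpp10 27 against 16, Galntl6 29 against 14, Csmd1 18 against 24, Csmd3 15 against 21, Park2 21 against 15 and Dpyd, which breaks down pyrimidines, 12 against 21. Their lengths were 866 to 1676 kb. Csmd1 and Csmd3, related genes of large membrane proteins with complement-control domains, both had more NSC regions.

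Of 466 microRNA genes in the RefSeq table, 2.15% had a region higher in Neurons (10 genes in 6 regions) and 3.00% one higher in NSCs (14 genes in 12 regions). A single region on the X (chrX:140117924-140118281, fold 9.87 in the authors' deposited table) held the cluster of Mir106a, Mir20b, Mir19b2, Mir92a2 and Mir363, related to the miR-17-92 cluster of proliferating cells. Mature sequences of its members other than Mir19b2 are shown above. It lay in a Neuron peak (fold over input 9.66) and in no NSC or Astrocyte peak. Mir375, known from pancreatic islets and neuroendocrine cells, had a promoter region in a CpG island higher in Neurons (10.2 in the authors' deposited table, chr9:82161879-82162393). The largest microRNA fold in the authors' deposited table, 21.5, was downstream of Mir509. Mir181c and Mir181d, which share the seed ACAUUCA, lay in 2 neighbouring NSC regions (12.3 and 11.1 in the authors' deposited table, from 25289237 to 25290107 on chromosome 19), and both were in no peak over input.

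Mir103a1 and Mir107, relatives that lie in introns of the pantothenate kinase genes Pank3 and Pank1, fell on opposite sides. The Mir103a1 region was higher in Neurons (9.07 in the authors' deposited table, chr10:20604551-20604870) and the Mir107 region higher in NSCs (9.28 in the authors' deposited table, chr1:253127581-253128204). Over input the first lay in a Neuron peak alone, and the second in an NSC and an Astrocyte peak. Mir128-2, one of the genes of the brain-enriched miR-128, had 1 region higher in NSCs, with a fold of 8.54 in the authors' deposited table, and lay in no peak over input.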

How the data were processed

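Genomic DNA enriched with an antibody against 6mA was sequenced from 1 library each of NSCs, Neurons and Astrocytes. Reads were aligned with BWA, per the submitters' processing notes, with no version given; the sources used here do not name the genome build, peak caller or filters. Read counts per library and mapping rates in percent come from the deposited summary of the alignment. The authors' peak lists, per the file headers, give a fold enrichment (a ratio) and a score of 10 times the −log10 p, at least 50 (p of 1e-05) in each list used. The folds and scores printed are the authors' own. From these files, regions were counted by direction, class, chromosome and gene (Python 3.11.15, pandas 2.3.3, scipy 1.17.1), and 1 blank line was skipped. Regions and peaks were called overlapping from 1 bp; the overlap code was checked on simulated intervals. Intervals are exact Clopper-Pearson 95% intervals of counting error only, since neighbouring regions are not independent. No test between libraries was run. Gene lengths and sequences came from RefSeq's GRCr8 tables by symbol, matching 555 of 556 list genes and 9260 of 12182 gene names with a region. Named regions were those with the largest fold at promoters, exons and CpG islands, the highest scores, genes with most regions, and list members with the largest fold or most regions; other list members are examples chosen after their values were seen. Members and 21 gene lists were chosen with earlier results of these data known. Alternatives were a score of at least 100, a fold of at least 10, regions in their own peak, joined regions, an overlap of 50% and gene bodies only.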

Additional observations from a re-analysis of the deposited data

How the results depend on the processing

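No paired analysis was possible because each cell type had 1 library. No replicate could be left out for the same reason. The score, fold and own-peak settings each leave fewer regions, and in every class and on both chromosomes below the share higher in Neurons moved up. The own-peak setting keeps 84.3% of Neuron regions and 74.3% of NSC regions, so its rise over all regions follows from the filter. Values follow in the order score of at least 100, fold of at least 10, and regions in a peak of their own library. Of all regions, 60.5%, 58.4% and 56.9% were higher in Neurons. Promoters gave 64.4%, 62.98% and 61.0%, exons 63.75%, 60.7% and 62.0%, introns 63.8%, 59.2% and 58.8%, and no gene class 58.7%, 57.8% and 55.7%. CpG islands gave 86.96%, 72.0% and 76.1%, and shores 78.7%, 67.4% and 67.7%. Downstream windows gave 58.5% and 59.3% with the score and own-peak settings. Chromosome 12 gave 62.6%, 62.2% and 65.3%. The X gave 56.9% and 56.8% with the score and fold settings, above 50%, so its balance holds only over all regions and those in their own peak. It stayed below the share of all regions in each setting.

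A peak of the other library lay at 24.8%, 1.02% and 19.1% of Neuron regions and at 18.8%, 0.896% and 11.1% of NSC regions. An Astrocyte peak lay at 54.8%, 19.2% and 37.8% of Neuron regions and at 42.1%, 13.8% and 25.5% of NSC regions. With an overlap of at least 50% of the region these 4 shares were 14.96%, 6.48%, 30.97% and 17.5%, the first 2 for the other library. Of genes with 1 direction, 63.1%, 59.8% and 61.2% had Neuron regions. Genes with both directions made up 7.78%, 16.2% and 22.6%, and 28.4% with exon and intron columns only. Regions of all gene lists gave 65.3%, 59.6% and 60.9%. Joining regions within 1000 bp gave 53.9%, and the lists held no unplaced scaffold, so including all rows changed nothing. Of 744 counts for single lists and genes under the alternatives, 283 moved by more than 1.5 times or to 0. With 1 library per cell type, counting error is the one error that could be given. The same few folds recur in many regions, and the read counts behind them were not used here.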
